A study of Arabidopsis thaliana with 47 samples.

Results

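The transcripts described here are those of the mitochondrial genome of Arabidopsis thaliana. Their 121 loci are all those whose identifier starts with ATMG, each counted at its lowest-numbered splice variant, out of 28197 loci in the deposited tables. The choice used identifiers only and no measured value. The study followed leaf mesophyll protoplasts, cells whose walls had been digested away, as they re-enter the cell cycle in culture. RNA-seq was run on the wild-type accession Col-0, with 47 libraries in all. The labels give group and replicate number only. The replicate numbers fall into 3 ranges, here called experiments 1 to 3, and this split was inferred from those ranges. Rosette leaves and protoplasts alike came from plants grown for 23 days after sowing (DAS). For culture, protoplasts were embedded in alginate and kept in the dark. The standard medium held the synthetic auxin 2,4-D at 1 mg per L and the cytokinin-like thidiazuron at 176 µg per L. Experiment 1 held the 23 DAS leaf, freshly isolated protoplasts (Day 0), and protoplasts at Day 14 in control medium or with MB-3, an inhibitor of histone acetyltransferases, as replicates 1 to 3. Experiment 2 held 5 Day 0 libraries (replicates 4 to 8), 3 control libraries at each of Day 2, Day 4 and Day 6, and 3 libraries at each of Day 4 and Day 6 for protoplasts given MB-3 or yucasin, an inhibitor of auxin biosynthesis. Experiment 3 held Day 0, Day 4 control and Day 4 medium lacking 2,4-D (-2,4-D), as replicates 9 to 11. The labels do not say whether replicates came from separate isolations, so p-values measure the spread between these libraries.

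Plant mitochondria keep a small genome that encodes some subunits of respiratory complexes I, III and IV and of ATP synthase, factors that attach haem to c-type cytochromes, and a few ribosomal proteins, while the nucleus encodes the remaining subunits. Mitochondrial transcripts are made by nuclear-encoded phage-type RNA polymerases, are edited and spliced in the organelle, and in plants a poly(A) tail usually marks such an RNA for decay rather than stability. The libraries were made with an mRNA kit, and a level here is therefore the amount of mitochondrial RNA that entered an mRNA library, not the total amount of that RNA in the cell.

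Names were available for 19 of the 121 loci in the study's own gene list, and the reference annotation names a nuclear partner, with a description, for 45. These sources gave a role to 26 loci: 9 of complex I, 1 of complex III, 3 of complex IV, 6 of ATP synthase, 3 of cytochrome c maturation and 4 ribosomal proteins. The other 95 loci were not assigned a role and are given by identifier. Among these 95, the reference describes the partner of ATMG01090 as mitochondrial ATP synthase 9, that of ATMG01280 as like cytochrome c oxidase subunit II and that of ATMG00590 as a cytochrome b/b6 protein, and the tallies by role below leave these loci out. Further loci among the 95 may belong to these roles, so counts and shares by role cover the 26 assigned loci only. Of the unassigned loci named below, ATMG00280 has a partner described as the catalytic domain of the ribulose bisphosphate carboxylase large chain. The partner of ATMG00370 is described as a Ycf1 protein. The files cannot tell organelle RNA from reads of the nuclear copy of the mitochondrial genome on chromosome 2. The 93 loci from AT2G07660 to AT2G07850 held 102 to 173 counts for every 100 ATMG counts, and 14 ATMG loci had the same count as a locus of that stretch in each of the 47 libraries. Among them were ATP8 (ATMG00480) and the ribosomal protein S12 locus (ATMG00980). Another 3 pairs of ATMG loci had equal counts throughout, so members are not independent of each other.

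Between 2343 and 209183 counts per library were at ATMG loci, out of 4.5 to 19.7 M in all. Trimmed-mean (TMM) scaling factors were 0.495 to 0.673 at Day 0 and 0.909 to 1.39 in the other groups, so comparisons with Day 0 depend on the scaling. In experiment 1, loci silent in every library of experiments 2 and 3 (2176 nuclear loci) had counts unevenly: 676, 1710 and 1132 of them in the leaf libraries, 20, 15 and 637 at Day 0, 974, 77 and 1810 in Day 14 control, and 33, 199 and 107 with MB-3. Counts for the comparisons of experiment 1 are therefore also given without Day 0 replicate 3 and Day 14 control replicates 1 and 3. That setting leaves Day 14 control with 1 library, which is then assumed to vary like the other groups. The summed level of 5 mesophyll markers was 28843 to 74915 CPM (counts per M counts of TMM-scaled library size) in leaf and 1961 to 5386 CPM at Day 0 of experiment 1. In experiment 2, which was scaled by itself, it was 1509.6 to 6208 CPM at Day 0 and 511 to 768 CPM in Day 6 control. The 4 epidermal markers summed to 166 to 225 CPM in leaf and at most 16.7 CPM in any protoplast library. In bulk libraries, fewer cells of a type and less RNA per cell cannot be told apart.

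Mitochondrial loci took a small share of the counts, and in experiments 2 and 3 that share was far larger in cultured protoplasts than in fresh ones. At Day 0 of experiment 2 the 5 libraries gave 0.0345, 0.035, 0.0402, 0.0392 and 0.0443% of counts to ATMG loci. At Day 2 the control libraries gave 0.593, 0.722 and 0.554%, at Day 4 0.592, 0.647 and 0.507%, and at Day 6 0.309, 0.32 and 0.312%. No cultured library of experiment 2 overlapped Day 0, and no Day 6 control library reached the Day 4 range. The ratio of the means to Day 0 was 16.1 at Day 2, 15.1 at Day 4 and 8.12 at Day 6, against 5.5, 2.86 and 1.99 for the 88 plastid loci counted in the same libraries. The Day 2 plastid ratio leans on replicate 5, with plastid shares of 2.6, 6.31 and 2.77% in replicates 4, 5 and 6. Experiment 3 gave 0.0409, 0.0542 and 0.0513% at Day 0 and 0.584, 1.09 and 0.924% at Day 4, a ratio of 17.7. The shares are values per library with no test; the 95% exact binomial interval of the shallowest one, Day 0 replicate 4 with 2343 ATMG counts, ran from 0.0331% to 0.036%.

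With yucasin the share was higher still. The Day 4 yucasin libraries held 1.75, 2.12 and 1.59% and the Day 6 yucasin libraries 1.93, 2.11 and 2.08%, each above every control library of its day, with ratios to control of 3.12 and 6.5. MB-3 libraries held 0.856, 0.705 and 0.684% at Day 4 and 1.19, 0.783 and 0.702% at Day 6, with ratios of 1.29 and 2.84. The Day 4 and Day 6 ranges overlapped within each treatment, whereas in control medium the mean share at Day 6 was 0.314% ± 0.00558 (SD, n = 3) against 0.582% ± 0.0708 at Day 4. Without 2,4-D the Day 4 share was 1.43, 1.27 and 1.32%, above each of the 3 Day 4 control libraries, with a ratio of 1.55. In experiment 1 the leaf libraries held 0.0926, 0.137 and 0.0909% and Day 0 0.0962, 0.15 and 0.113%, and these ranges overlapped. Day 14 control held 0.495, 0.144 and 0.13% and Day 14 MB-3 0.383, 0.161 and 0.235%, where replicate 1 was the highest library of each group.

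**Figure D1:**
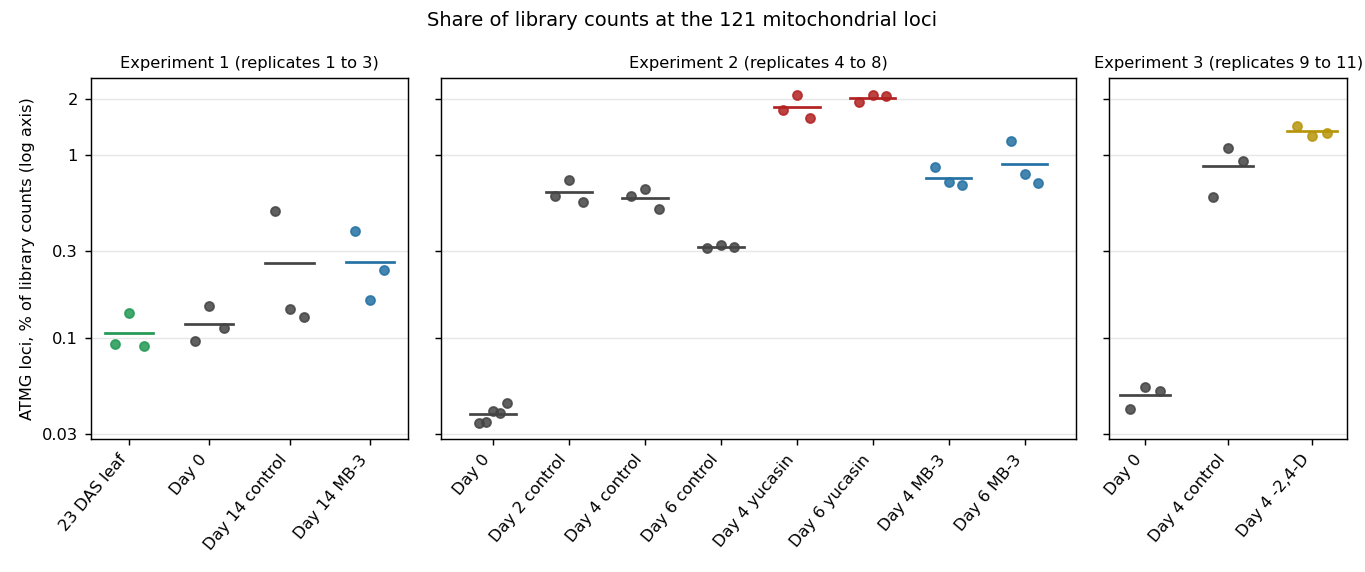
Share of library counts at the 121 ATMG loci (percent, log axis) for each library, by group, in the 3 experiments; points are libraries and bars group means. Day 0 libraries of experiments 2 and 3 sit between 0.0345% and 0.0542%, below every cultured library, and the 6 yucasin libraries between 1.59% and 2.12%.

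A few loci carried much of the mitochondrial count, and which ones did so differed between groups. Over all libraries the 5 leading loci were ATP1 (ATMG01190, the alpha subunit of ATP synthase), ATMG00640, S12 (ATMG00980), ATMG00090 and ATP9 (ATMG01080, the membrane ring subunit of ATP synthase), with mean shares of 9.62%, 6.49%, 5.95%, 5.53% and 4.58% of ATMG counts. These are shares of counts and not levels per length. ATP synthase held the largest share of any assigned role at Day 0 of experiments 2 and 3: its 6 loci held 36.1% ± 1.8 (SD, n = 5) of ATMG counts in experiment 2 and 41.9% ± 1.58 in experiment 3, while the 95 loci not assigned a role held 40.3% ± 1.53 and 37.5% ± 1.18. They held 22.1% ± 3.71 at Day 2, 14.6% ± 0.502 at Day 4 and 13.3% ± 0.567 at Day 6, with every Day 6 library below every Day 0 library. With ATMG01090 added, a choice made after the data had been seen, the ATP synthase share was 39.3% ± 2.22 at Day 0 and 15.3% ± 0.799 at Day 6. ATP1 (ATMG01190) alone held 21.7% ± 1.34 at Day 0, 9.84% ± 2.78 at Day 2, 5.89% ± 0.475 at Day 4 and 5.16% ± 0.214 at Day 6. Complex I loci held 9.15% ± 0.768 at Day 0 and 9.99% ± 0.192 at Day 6, and the ribosomal protein loci held 4.96% ± 1.12 and 8.11% ± 0.868. With yucasin the ATP synthase share at Day 6 was 21.2% ± 1.55 and with MB-3 18.7% ± 0.633, both ranges above the Day 6 control, while the ribosomal protein share was 4.6% ± 0.256 and 4.65% ± 0.34, both below it.

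Experiment 1 had another composition, also at Day 0. S12 (ATMG00980) held 15.9% ± 2.67 (SD, n = 3) of ATMG counts at its Day 0, against 4.15% ± 1.11 in experiment 2 and 1.88% ± 0.276 in experiment 3. In Day 14 control the S12 locus took 30.5, 16 and 14.7%, the largest share of any locus in these libraries. ATP synthase loci together held 19.6% ± 5.31 at Day 0 of experiment 1 and 6.53% ± 2.41 in Day 14 control. Day 0 of experiment 1 and Day 0 of the other experiments were fitted separately, and the difference between them was not tested.

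**Figure D2:**
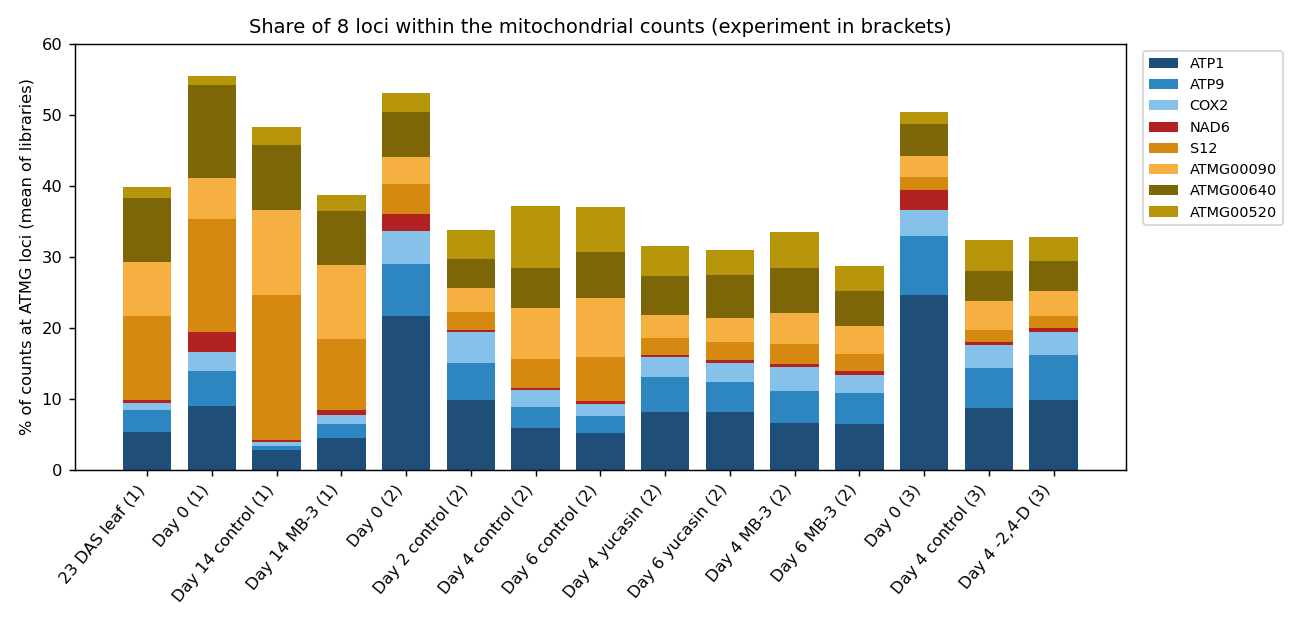
Mean share of the counts at ATMG loci (ATP1 is ATMG01190) (percent, stacked bars, groups of 3 libraries, or of 5 for Day 0 of experiment 2) for 8 loci in each group, with the experiment in brackets. ATP1 takes 21.7% at Day 0 of experiment 2 and 5.16% at Day 6, and S12 (ATMG00980) takes 20.4% in Day 14 control.

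Levels of single loci were compared on TMM-scaled counts. A locus was said to have risen or fallen where its log2 fold change was above 2 or below -2 and both p and the adjusted p over all loci tested were under 0.01, and a count at adjusted p under 0.05, with no minimum fold, is given beside it. All 121 loci passed the filter on low counts in experiment 2, 120 in experiment 3 and 90 in experiment 1. Up to 43 loci had no count in a Day 0 library, so a locus could pass only through the cultured groups, and the counts below are descriptions of what was tested.

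Between Day 0 and Day 2, 119 of the 121 loci rose and none fell, where 18.5% of all 19043 loci tested rose; their median log2 fold change was 4.60, against 0.22 over all loci. At Day 4, 113 rose (background 25.3%, median 3.96 against 0.32), and at Day 6, 90 rose (background 27.5%, median 2.85 against 0.34). The 3 comparisons share the Day 0 libraries, and the 90 loci that rose by Day 6 had risen at both earlier days. The rise was not confined to scarce transcripts: among the 60 loci with the higher mean level, 58, 53 and 37 rose at the 3 days, with medians of 3.65, 3.39 and 2.43. Plastid loci moved less, with medians of 1.80, 1.38 and 0.61 over the 86 tested. Scaling by total counts, which moves the median of all loci by 0.80 to 1.11, left the ATMG medians at 5.35, 4.89 and 3.93.

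Complex I transfers electrons from NADH to ubiquinone, and 8 of the 9 loci assigned to it rose by Day 2. NAD1 (ATMG01275), a membrane subunit, stood at 0.483, 0.134, 0.299, 0.731 and 0.876 CPM at Day 0 and at 18.9, 28.9 and 14.2 CPM at Day 2, with no overlap and a log2 fold change of 5.29 ± 0.32 (SE, adjusted p = 7e-13). NAD7 (ATMG00510) gained 4.56 ± 0.18 (SE, adjusted p = 7.9e-16) and NAD9 (ATMG00070) 3.63 ± 0.15 (SE, adjusted p = 1.3e-15) on the same scale. The exception was NAD6 (ATMG00270), a membrane subunit of the same complex. Its 5 Day 0 libraries gave 17.9, 14.2, 11.5, 14.6 and 22.2 CPM, those of Day 2 15.8, 28.7 and 16.2 CPM, those of Day 4 19.3, 21.6 and 14.7 CPM and those of Day 6 5.87, 9.61 and 8.9 CPM. The Day 2 and Day 4 values overlapped Day 0, and all 3 Day 6 values lay below it. The fitted log2 fold changes of NAD6 were 0.32 ± 0.32 (SE, adjusted p = 0.37), 0.21 ± 0.31 (SE, adjusted p = 0.52) and -0.97 ± 0.34 (SE, adjusted p = 0.0099), the last being the 1 mitochondrial locus lower at adjusted p under 0.05 (background 38.1%), though its Day 6 value was 0.14 under scaling by total counts. By Day 6, 6 of the 9 complex I loci remained above the threshold, with NAD1 at 3.13, NAD9 at 3.11 and NAD5 (ATMG00513), which did not pass, at 1.77.

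COB (ATMG00220), the apocytochrome b of complex III, and the 3 loci of complex IV, which passes electrons to oxygen, rose together by Day 2. COB stood at 3.38, 3.6, 3.43, 3.9 and 3.07 CPM at Day 0, 44.6, 59.2 and 34.6 CPM at Day 2 and 19.1, 18.1 and 20.03 CPM at Day 6, with log2 fold changes of 3.71 ± 0.37 (SE, adjusted p = 3.4e-09) and 2.44 ± 0.38 (SE, adjusted p = 2.1e-06). COX1 (ATMG01360), the catalytic subunit of complex IV, stood at 5.07, 7.88, 7.91, 8.65 and 12.7 CPM at Day 0 and 143, 211 and 119.8 CPM at Day 2, a log2 fold change of 4.20 ± 0.31 (SE, adjusted p = 1.7e-11). Neither locus had a cultured library within its Day 0 range. COX2 (ATMG00160), which receives electrons from cytochrome c, rose by 3.18 ± 0.24 (SE, adjusted p = 2.6e-11) at Day 2 but stood at 0.51 ± 0.24 (SE, adjusted p = 0.051) at Day 6, past neither threshold. COX3 (ATMG00730) was at 4.02 and 2.08 at those days and passed at both.

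The 6 loci assigned to ATP synthase rose at Day 2, and 1 of them passed the threshold at Day 6. ATP1 (ATMG01190) gave 119, 118, 137, 149 and 172 CPM at Day 0, 484, 996 and 376 CPM at Day 2, 320.1, 322 and 224 CPM at Day 4 and 115, 131 and 125 CPM at Day 6. Day 2 and Day 4 lay above Day 0, and at Day 6 replicates 7 and 8 lay within its range and replicate 6 just below it. The log2 fold changes of ATP1 were 2.15 ± 0.27 (SE, adjusted p = 1.4e-07), 1.05 ± 0.27 (SE, adjusted p = 0.00098) and -0.17 ± 0.28 (SE, adjusted p = 0.57), and the Day 2 call was lost without replicate 5, the highest Day 2 library. ATP9 (ATMG01080) was at 2.79, 1.64 and 0.28, and ATP8 (ATMG00480), a small membrane subunit, at 2.85, 2.26 and 0.54. ATP6-2 (ATMG01170), a copy of the proton-channel subunit, was the one that still passed at Day 6, at 2.16. The other copy of that subunit, ATP6-1 (ATMG00410), stood at 1.92, and how reads shared by the copies were counted is not known.

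The 4 loci assigned to ribosomal proteins were past the threshold at each of Days 2, 4 and 6, as was COB. S12 (ATMG00980) stood at 31.4, 29.2, 26, 18.3 and 25.3 CPM at Day 0, 147, 183 and 123 CPM at Day 2, 185, 235 and 171 CPM at Day 4 and 168, 128 and 150.1 CPM at Day 6, the log2 fold change at Day 6 being 2.52 ± 0.18 (SE, adjusted p = 2.1e-12). L5 (ATMG00210) was at 4.20 and 3.41 at Days 2 and 6, and S7 (ATMG01270) at 4.89 and 3.08. Of the 3 loci for cytochrome c maturation, which attach haem to the carrier proteins, 3 rose at Day 2 and 1 at Day 6, ATMG00960 at 2.51. Among the 95 loci not assigned a role, 94 rose at Day 2 and 75 at Day 6. ATMG01040 had the largest fitted rise at each day; it had no count in any Day 0 library and 79, 49 and 56 counts at Day 2, at least 13.9-fold higher when Day 0 is set to 3 counts per library. ATMG00280 was the other locus past the threshold at none of the 3 days, with Day 0 values of 35.5, 2.67, 18.5, 2.31 and 2.48 CPM, of which replicates 4 and 6 were the high ones.

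**Figure D3:**
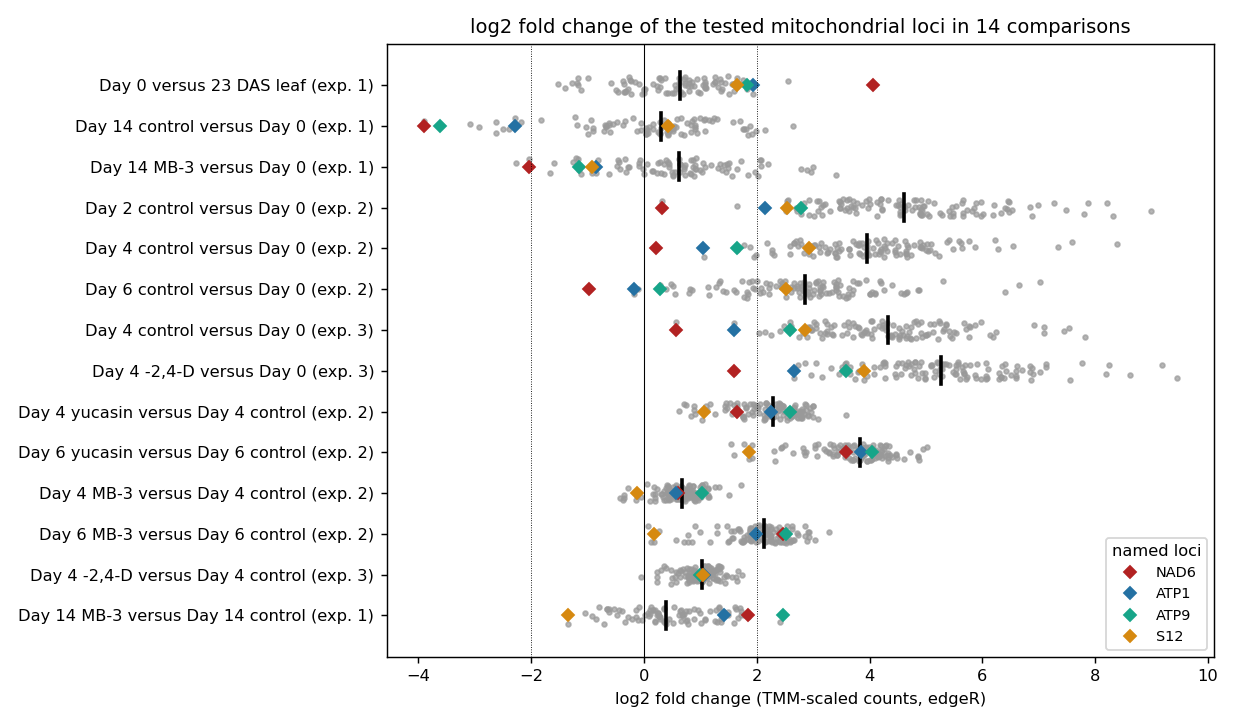
log2 fold change (edgeR, TMM-scaled counts) of every tested ATMG locus in 14 comparisons; grey points are loci, vertical bars medians, diamonds 4 named loci, and dotted lines the fold thresholds. NAD6 and ATP1 lie at the low end of the cloud against Day 0 (NAD6 at 0.32 and ATP1 at 2.15 at Day 2), and S12 at the low end with yucasin and MB-3.

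Within control medium, 2 comparisons added after the data had been seen followed the decline between days. From Day 2 to Day 4, 2 loci fell and none rose (background 2.88% lower and 5.72% higher), and at adjusted p under 0.05, 78 were lower and 7 higher (background 30.9% and 29.1%), with a median of -0.80. ATMG00750 fell most, by 2.34 on the log2 scale, and without replicate 5 it was 1 locus that fell. From Day 4 to Day 6 no locus passed the fold threshold (background 1.83% lower and 1.6% higher). At adjusted p under 0.05, 101 of 121 were lower (background 16.8%), with a median of -1.17. DESeq2 called 0 loci lower in that comparison, and leaving out replicate 6 gave 3 and replicate 7 2. ATP8 (ATMG00480) had the largest difference among the 26 loci with a role, -1.72 ± 0.24 (SE, adjusted p = 9.5e-06), with 64.4, 68.8 and 51.2 CPM at Day 4 and 13.8, 21.1 and 21 CPM at Day 6. NAD3 (ATMG00990) had the smallest, -0.23 ± 0.22 (SE, adjusted p = 0.44), and its ranges overlapped.

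Experiment 3 asked the Day 4 question again in other libraries and added medium without 2,4-D. Of 120 loci tested, 118 rose from Day 0 to Day 4 in control medium (background 24%, median 4.32 against 0.33 over all loci) and 119 rose without 2,4-D (background 16.9%, median 5.27 against 0.23). NAD6 (ATMG00270) was again the locus that moved least, with 12.9, 29.4 and 22.5 CPM at Day 0, 25.7, 38.9 and 31.7 CPM in Day 4 control and 55.8, 60.4 and 80.3 CPM without 2,4-D. Its log2 fold change was 0.56 ± 0.30 (SE, adjusted p = 0.11) in control medium and 1.60 ± 0.30 (SE, adjusted p = 0.0011) without 2,4-D, neither past the fold threshold. ATP1 (ATMG01190) was the other locus that did not pass in control medium, at 1.60 ± 0.34 (SE, adjusted p = 0.0016), and it rose by 2.67 ± 0.35 (SE, adjusted p = 0.00013) without 2,4-D. S7 (ATMG01270) had the largest values among loci with a role, 5.14 and 6.60, and NAD2 (ATMG00285) gave 4.82 and 5.88. ATMG00860 had the largest fitted change, from no count at Day 0 to 46, 36 and 33 counts in control and 56, 79 and 58 counts without 2,4-D, at least 6.43-fold and 19.5-fold higher.

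Set directly against Day 4 control, medium without 2,4-D gave no locus past the fold threshold, where 0.759% of all loci rose, and DESeq2 called 0. The median was 1.03, with 119 of 120 fitted values above 0 and 67 higher at adjusted p under 0.05 (background 10.1%). That count was 90 with replicate number as a block, 16 under scaling by total counts, 82 without replicate 9 and 0 without replicate 10 or without replicate 11. COB (ATMG00220) stood at 46.5, 71.9 and 66.8 CPM in control and 132, 134 and 139.7 CPM without 2,4-D, a log2 fold change of 1.13 ± 0.23 (SE, adjusted p = 0.0088). ATP1 (ATMG01190) stood at 309, 736 and 635 CPM and 1035, 1234 and 1246 CPM, a log2 fold change of 1.06 ± 0.34 (SE, adjusted p = 0.045). The named groups were close to each other, with medians of 1.04 for complex I, 1.06 for complex IV, 0.90 for ATP synthase and 1.14 for ribosomal proteins. Plastid loci had a median of 0.72 over the 83 tested, and 0 of them rose. The summed guard cell markers were 11.3 to 30.7 CPM in control and 26.2 to 49.7 CPM without 2,4-D, which overlap, and the 3 vascular markers 3.51 to 12.6 and 0.435 to 1.13 CPM, which do not, and the part of such cells in the result was not tested.

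Libraries of yucasin-treated protoplasts held more mitochondrial RNA than control libraries of the same day at every ATMG locus. At Day 4, 83 of 121 loci rose and none fell (background 1.49%), with a median log2 fold change of 2.29 against -0.01 over all loci. At Day 6, 115 rose and none fell (background 7.5%), with a median of 3.84 against 0.01. All 121 had every yucasin library above every control library at both days, where 22% and 35.4% of all loci did. The 83 loci that rose at Day 4 rose also at Day 6. Plastid loci had medians of 0.09 and 1.26, and 19 of 86 rose at Day 6. Summed guard cell markers were 13.8 to 18.6 CPM in control and 17.7 to 27.6 CPM with yucasin at Day 4, and 7.21 to 14.1 and 52.3 to 62.3 CPM at Day 6, with none of the 3 markers at 0, and the 4 epidermal markers summed to 1.34 to 1.79 and 5.69 to 16.7 CPM at Day 6 with 1 of them at 0 in each group. At Day 4 the epidermal markers summed to 2.37 to 3.02 and 8.44 to 11.2 CPM and the mesophyll markers to 606 to 616 and 1001 to 1333 CPM, so both sets were apart between control and yucasin. At Day 6 the mesophyll markers overlapped, at 511 to 768 CPM in control and 516 to 911 CPM with yucasin, while the vascular markers were apart in the other direction, at 35.3 to 37 and 10.1 to 24.9 CPM, and the part of other cell types in the result was not tested.

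By role, the counts at Day 4 followed medians that lay close to the fold threshold of 2, and roles were not tested against each other. ATP synthase loci rose in 6 of 6 cases, complex IV in 2 of 3, cytochrome c maturation in 2 of 3, complex I in 3 of 9 and ribosomal proteins in 0 of 4, with medians of 2.21, 2.25, 2.01, 1.65 and 1.64. At Day 6 the counts were 6 of 6, 3 of 3, 3 of 3, 8 of 9 and 3 of 4, and COB rose at both days. ATP1 (ATMG01190) stood at 1339, 1779 and 1029 CPM with yucasin at Day 4 and 1424, 2160.4 and 1736 CPM at Day 6, against the control values given above, with log2 fold changes of 2.26 ± 0.32 (SE, adjusted p = 1.6e-05) and 3.84 ± 0.34 (SE, adjusted p = 2.6e-09). Every yucasin library was thus several times any control library of its day. ATP8 (ATMG00480) reached 4.33 ± 0.26 (SE, adjusted p = 3.9e-12) and ATP9 (ATMG01080) 4.04 ± 0.28 (SE, adjusted p = 3.8e-11) at Day 6. COB (ATMG00220) stood at 141, 188 and 127 CPM and 202, 214 and 203 CPM at the 2 days, with log2 fold changes of 2.18 ± 0.36 (SE, adjusted p = 0.00011) and 3.43 ± 0.38 (SE, adjusted p = 7.3e-08). COX1 (ATMG01360) stood at 41.6, 47.8 and 47.5 CPM in Day 6 control and 509.9, 646 and 536 CPM with yucasin, at 3.63 ± 0.35 (SE, adjusted p = 7.9e-09).

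NAD6 (ATMG00270), which was past no threshold upward in control culture, did rise with yucasin at Day 6. Its yucasin libraries held 55.5, 69.5 and 49.4 CPM at Day 4 and 81.1, 105 and 107 CPM at Day 6, above each of the 5 Day 0 libraries as well as the controls of their day. The log2 fold change was 1.65 ± 0.34 (SE, adjusted p = 0.00095) at Day 4 and 3.59 ± 0.37 (SE, adjusted p = 2.2e-08) at Day 6. At Day 6 the 4 smallest fitted values came from loci with neighbouring identifiers, while at Day 4 ATMG00090 (0.63) and ATMG00520 (0.72) had the smallest. S12 (ATMG00980) stood at 535, 539.9 and 546 CPM with yucasin at Day 6, 1.86 ± 0.20 (SE, adjusted p = 4.3e-08), and NAD3 (ATMG00990) at 227, 192 and 191 CPM, 1.59 ± 0.22 (SE, adjusted p = 1.7e-06). ATMG01000 (1.55) and ATMG01010 (1.78), named after their values were seen, lie next to them by number. Together with ATMG00090 (1.91) and ATMG00370 (1.92, likewise chosen afterwards) they made up the 6 loci that passed the fold threshold at neither day, though all 6 had an adjusted p under 0.01 at Day 6. ATMG00850 had the largest rise at Day 4, from 5, 8 and 6 counts in control to 47, 59 and 30 counts, and ATMG00450 at Day 6, from 10, 6 and 8 to 153, 158 and 131 counts.

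**Figure D4:**
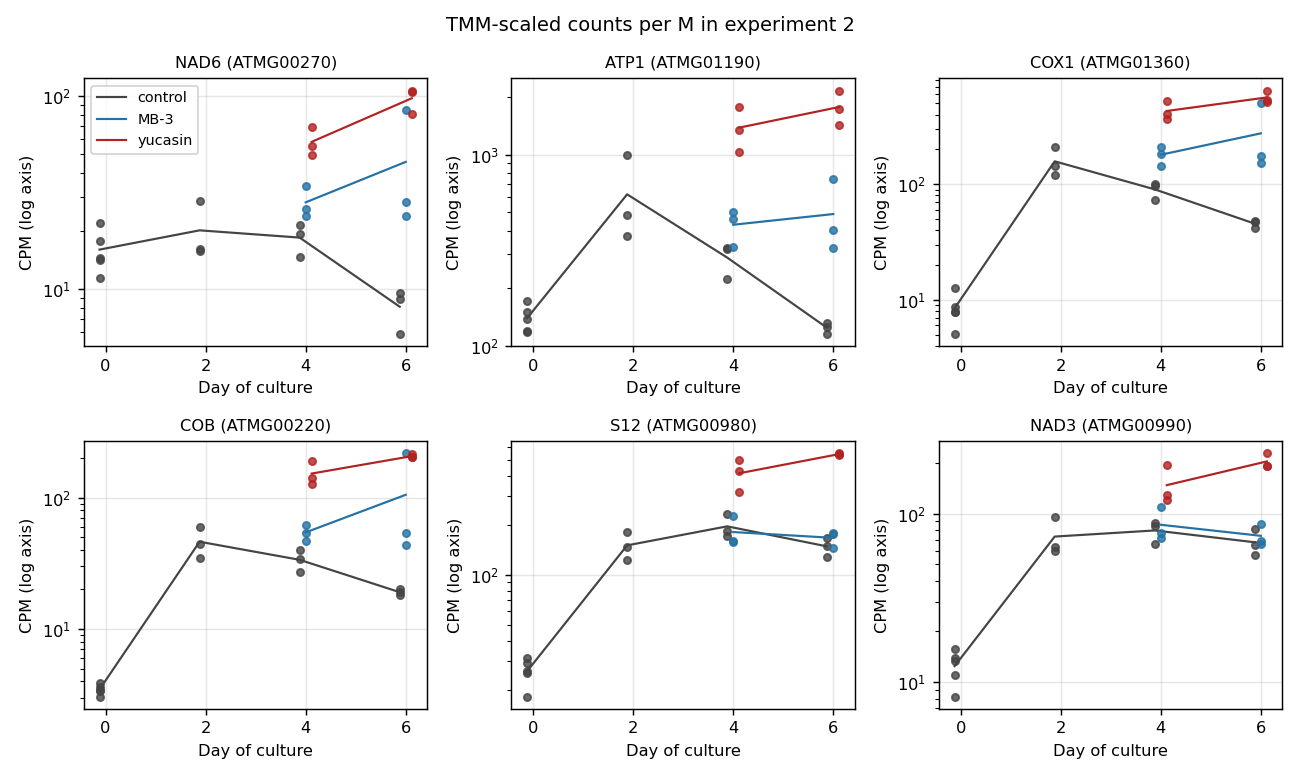
TMM-scaled CPM (log axis) against day of culture for 6 loci in experiment 2; points are libraries, lines join group means of control (grey), MB-3 (blue) and yucasin (red). The red points lie above the grey ones of the same day for all 6 loci, while MB-3 and control points overlap for S12 (ATMG00980) and NAD3 (ATMG00990).

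MB-3 gave a smaller difference, which was larger at Day 6 than at Day 4. At Day 4 no locus passed the fold threshold (background 0.0735% higher), and DESeq2 called 0. The median was 0.68, and 37 loci were higher at adjusted p under 0.05 (background 2.64%). That count was 58 with replicate number as a block and 1 to 41 when each replicate was left out, the lowest without replicate 4. At Day 6, 68 loci rose and none fell (background 2.25%), with a median of 2.12 against -0.02 over all loci, and 117 were higher at adjusted p under 0.05 (background 14.2%). Without replicate 6 of Day 6 MB-3, 51 rose with a median of 1.95. That library stood apart at several loci: COB (ATMG00220) was at 217, 54.2 and 43.7 CPM, COX1 (ATMG01360) at 500.4, 174 and 153 CPM and NAD6 (ATMG00270) at 85, 28.4 and 24 CPM in replicates 6, 7 and 8. The other pair of libraries still lay above every Day 6 control library at each of these loci. The fitted log2 fold changes at Day 6 were 2.45 ± 0.37 (SE, adjusted p = 2.6e-05) for COB, 2.59 ± 0.34 (SE, adjusted p = 3.3e-06) for COX1 and 2.46 ± 0.36 (SE, adjusted p = 1.7e-05) for NAD6. Without replicate 6 of Day 6 MB-3 they were 1.34 ± 0.19, 1.82 ± 0.24 and 1.66 ± 0.27 (SE), all short of the fold threshold, so these 3 calls rest on that library. Plastid loci had medians of -0.03 at Day 4 and 0.79 at Day 6 with MB-3 over the 86 tested, and 0 of them rose at either day.

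By role, complex IV rose in 3 of 3 loci at Day 6, ATP synthase in 3 of 6, complex I in 4 of 9, cytochrome c maturation in 2 of 3 and ribosomal proteins in 1 of 4. Without replicate 6 of Day 6 MB-3 these counts were 1, 3, 0, 1 and 0. COX3 (ATMG00730) was at 2.85 ± 0.30 (SE, adjusted p = 1.9e-07) and ATP9 (ATMG01080) at 2.52 ± 0.26 (SE, adjusted p = 1.9e-07), with 47.4, 65.1 and 55.8 CPM in control and 427, 294 and 243 CPM with MB-3, and both passed without that library, at 2.15 ± 0.19 and 2.24 ± 0.25 (SE). ATMG00880 had the largest rise, 3.29 ± 0.43 (SE, adjusted p = 3.6e-06), on 9, 7 and 7 counts in control and 54, 35 and 73 with MB-3. The loci with the smallest fitted values with MB-3 at Day 6 were ATMG01000 (0.08), NAD3, S12 and ATMG01010 (0.27); the yucasin values given above were set against the same control libraries. S12 (ATMG00980) stood at 179, 178 and 146 CPM with MB-3 and 168, 128 and 150.1 CPM in control, 0.17 ± 0.19 (SE, adjusted p = 0.56), and NAD3 (ATMG00990) at 0.12 ± 0.22 (SE, adjusted p = 0.72). ATMG00090 was at 0.56 ± 0.17 (SE, adjusted p = 0.016) and ATMG00520 at 0.72 ± 0.19 (SE, adjusted p = 0.006). Within the ATMG total, ATMG00520 held 8.78% ± 0.838 (SD, n = 3) in Day 4 control, 4.21% ± 0.162 with yucasin and 5.1% ± 0.523 with MB-3, and ATMG00090 held 8.29% ± 0.611, 3.43% ± 0.559 and 3.96% ± 0.261 at Day 6. The treated ranges of ATMG00520 at Day 4 and of ATMG00090 at Day 6 did not reach those of the control. Summed guard cell markers overlapped at Day 6, at 8.53 to 15.7 CPM with MB-3 and 7.21 to 14.1 CPM in control, whereas the vascular markers were lower with MB-3, at 4.3 to 8.18 against 18.4 to 25.7 CPM at Day 4 and 10.1 to 18 against 35.3 to 37 CPM at Day 6. Mesophyll markers overlapped at Day 6, at 343 to 589.5 CPM with MB-3 and 511 to 768 CPM in control. The part of such cells in the result was not tested.

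Yucasin and MB-3 libraries of the same day were also compared directly, 2 comparisons added after the data had been seen. At Day 4, 9 loci rose in yucasin relative to MB-3 (background 0.803%, median 1.58 against -0.01), a count that was 2 without replicate 5, 14 without replicate 6 and 18 without replicate 4; 119 were higher at adjusted p under 0.05 (background 8.55%). At Day 6, 23 rose (background 3.29%, median 1.66 against -0.01) and 119 were higher at adjusted p under 0.05 (background 22.1%). Without replicate 8, 14 rose, and under scaling by total counts none of the 121 passed the fold threshold, and the median was 1.301. ATMG00710 had the largest rise at Day 4, 2.47 ± 0.38 (SE, adjusted p = 8.2e-05), and ATMG01290 at Day 6, 2.34 ± 0.28 (SE, adjusted p = 1.2e-06). Among loci with a role, ATP8 (ATMG00480) was at 2.08 ± 0.23 (SE, adjusted p = 4.6e-07) at Day 6 and ATMG00900, of cytochrome c maturation, at 2.03 ± 0.20 (SE, adjusted p = 9.8e-08). No ATMG locus was lower in yucasin than in MB-3 by the fitted value at either day.

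Among loci not assigned a role, ATMG00640, ATMG00090 and ATMG00520 carried the most counts or shifted most within the total. ATMG00640 stood at 27.5, 50.9, 40.6, 39.2 and 45.8 CPM at Day 0, 172, 143 and 156 CPM in Day 6 control, 1415, 1257 and 1272 CPM with yucasin and 392, 346 and 326 CPM with MB-3, with no overlap between these groups. Its log2 fold change was 3.07 ± 0.21 (SE, adjusted p = 3.7e-11) with yucasin and 1.18 ± 0.20 (SE, adjusted p = 8.1e-05) with MB-3 at Day 6, the second short of the fold threshold. ATMG00090 went another way within control culture: it stood at 184, 198 and 194 CPM at Day 2, 381, 318 and 344 CPM at Day 4 and 196, 218 and 181 CPM at Day 6, while most ATMG loci were lower at Day 4 than at Day 2. ATMG00520 stood at 14.5, 16.2, 18.4, 16.8 and 19.9 CPM at Day 0, 236, 192 and 270.5 CPM at Day 2, 487, 474 and 331 CPM at Day 4 and 123, 167 and 164 CPM at Day 6. From Day 2 to Day 4 its log2 fold change was 0.89 ± 0.19 (SE, adjusted p = 0.00034), the highest of the 121 loci, and that of ATMG00090 was 0.86 ± 0.17 (SE, adjusted p = 0.00017). At the other end, 32 loci had at least 10 counts in each of the 47 libraries and 55 had none in at least 1. The 61 loci of lower mean level had 54 rises with yucasin at Day 4 and 61 at Day 6, and the 60 of higher mean level 29 and 54; with MB-3 at Day 6 they had 39 and 29.

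The leaf, fresh protoplasts and Day 14 were compared in experiment 1, where spreads were wider and libraries stood apart as described. From leaf to Day 0, 2 of 90 loci rose and none fell (background 11.7% higher and 22.4% lower); the median was 0.63 against -0.56 over all loci, and it was -0.41 under scaling by total counts, which also moved the median of all loci by -1.03. At adjusted p under 0.05, 21 were higher (background 28.8%). NAD6 (ATMG00270) stood at 3.52, 7.44 and 0.655 CPM in leaf and 73.9, 45 and 65.5 CPM at Day 0, 4.05 ± 0.89 (SE, adjusted p = 0.0013), and COX2 (ATMG00160) at 11.1, 12.6 and 4.59 and 68.8, 53 and 44.3 CPM, 2.56 ± 0.61 (SE, adjusted p = 0.0023). The Day 0 libraries of both loci lay above those of leaf, but neither call held without replicate 3, where the fitted values were 3.48 and 2.36 and the ATMG median 0.24. Under scaling by total counts they were 2.97, still a call, and 1.52, no longer one. Without the 3 libraries named above 2 loci rose, with a median of 0.30. From Day 0 to Day 14 in control medium, 10 loci fell and none rose (background 13.5% lower and 20.5% higher), 4 of them of ATP synthase, and at adjusted p under 0.05, 4 were higher and 13 lower (background 36.8% and 32%). NAD6 fell most, to 8.86, 2.29 and 2.32 CPM, -3.89 ± 0.86 (SE, adjusted p = 0.0013); ATP9 (ATMG01080) went from 111, 132 and 80.03 CPM to 13.1, 6.61 and 7.21 CPM, -3.61 ± 0.68 (SE, adjusted p = 0.00035). Without replicate 2, 5 loci fell, without the 3 libraries named above 4 fell, and under scaling by total counts 1 fell and 19 rose. The ATMG median was 0.29, or -0.39 without replicate 1 and -0.05 without the 3 libraries. Without the 3 libraries, against the 1 Day 14 control library left, the NAD6 and ATP9 values were -4.70 and -4.20 and neither passed; under scaling by total counts they were -2.56, no longer a call, and -2.32, still one. ATP1 (ATMG01190) stood at 220.0, 192 and 172 CPM and 47.2, 39.7 and 33.3 CPM, -2.28 ± 0.59 (SE, adjusted p = 0.0039), a call lost without replicate 2 (fitted value -2.29), without replicate 3 (-2.25) and without the 3 libraries (-2.38), where the value stayed about as large, and under scaling by total counts (-0.98), where it did not.

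With MB-3, 5 loci rose and 1 fell between Day 0 and Day 14 (background 18.4% and 13.8%), and the ATMG median was 0.63 against 0.10 over all loci. At adjusted p under 0.05, 11 were higher and 6 lower (background 35.6% and 31.8%). ATMG00830 had the largest rise, 2.99 ± 0.55 (SE, adjusted p = 0.00031), and ATMG00280 fell by 2.26 on the log2 scale. Under scaling by total counts 27 rose, without the 3 libraries 1 rose, and without replicate 1, the Day 14 MB-3 library with the highest share, 1 rose and 7 fell with a median of -0.05. Without replicate 2 and without replicate 3, 2 rose and 0 fell. Between Day 14 MB-3 and Day 14 control no locus passed the fold threshold (background 1.77% higher and 3.51% lower). At adjusted p under 0.05, 9 of 90 were higher (background 10.4%), and DESeq2 called 1. An MB-3 library stood apart: COB (ATMG00220) stood at 94.3, 9.28 and 10.6 CPM with MB-3 and 11, 5.31 and 5.6 CPM in control, the first MB-3 library being the high one. S12 (ATMG00980) was high in Day 14 control replicate 1 instead, at 1127, 184 and 139 CPM against 196, 123 and 248 CPM with MB-3. When each replicate was left out in turn, 1 to 3 loci were higher at adjusted p under 0.05.

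Nuclear genes for the same functions were counted in the same libraries, from lists fixed with earlier results known. Of 56 nuclear genes for the respiratory chain in the study's list, 55 were tested in experiment 2: 4 rose and 1 fell at Day 2 (median 0.69, where 18.5% of all loci rose) and 14 rose and 3 fell at Day 6 (median 1.38, where 27.5% of all loci rose), a share near that background. With yucasin 0 rose at Day 4 and 2 at Day 6 (medians 0.18 and 0.54, background 1.49% and 7.5%), and with MB-3 0 at Day 6 (median 0.17, background 2.25%). Of 30 tested genes of the tricarboxylic acid cycle, which supplies the chain with electrons, 3 rose and 0 fell at Day 2 (median -0.07). With yucasin at Day 6, 0 of these genes rose and 1 fell (median 0.66), where 1029 of all 19043 loci tested fell. At adjusted p under 0.05 in that comparison, 23 of these genes were higher and 2 lower. Of the respiratory chain genes, 34 were higher and 0 lower by the same rule. The share of all loci at that rule is not given here. Of 6 genes fixed as a list for making or degrading mitochondrial RNA, 2 rose by Day 2. AT5G14580, which the reference describes as a polyribonucleotide nucleotidyltransferase, an enzyme that degrades RNA from its 3′ end, changed by 4.97 ± 0.19 (SE, adjusted p = 4.6e-16), and the phage-type RNA polymerase AT5G15700 by 2.64 ± 0.16 (SE, adjusted p = 4.1e-13). With yucasin at Day 6 AT5G14580 was at -1.14 ± 0.17 (SE, adjusted p = 3.5e-06) and AT5G15700 at 0.04 ± 0.17 (SE, adjusted p = 0.87), and MGP3 (AT1G68990), the other mitochondrial RNA polymerase, at -0.88 ± 0.11 (SE, adjusted p = 6.7e-07). With MB-3 at Day 6 AT5G14580 was at 0.27 ± 0.15 (SE, adjusted p = 0.2), and without 2,4-D at Day 4 at -1.62 ± 0.27 (SE, adjusted p = 0.004). None of the 6 genes passed the fold threshold in those treatment comparisons. AT5G02250, AT2G17580 and AT1G55870, also of the list, were at 0.05, 0.37 and -0.15 at Day 2 on the log2 scale. At Day 6 they were at -0.12, -0.36 and -1.08 against Day 0. The values at Day 6 were -0.53, -0.46 and -0.21 with yucasin and -0.14, 0.22 and 0.55 with MB-3, each against control.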

How the data were processed

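Per the labels and the study's methods, stranded mRNA libraries were sequenced single-end and reads mapped to TAIR10 with Bowtie 0.12.9; the authors deposited raw counts per splice variant, and how reads that map to several places were counted is not given in the sources used here. From these counts the lowest-numbered variant of each of 28197 loci was kept. Each experiment was fitted by itself in edgeR 4.0.16 (R 4.3.3; quasi-likelihood test, filterByExpr, TMM, group as the factor, Benjamini-Hochberg adjustment over all loci tested); a call needed a log2 fold change over 2 in size and p and adjusted p under 0.01. Standard errors (SE) were taken as the size of each log2 fold change over the root of its F statistic. CPM values were scaled within one experiment, and levels were not compared between loci. Named loci were those of fixed lists of mitochondrial genes, the 5 loci with the highest mean share, and the largest rise and fall called in each comparison; others are marked as chosen after their values were seen. Members and lists were chosen with earlier results of these data known, and 4 of the 18 comparisons were added after the data were seen. Alternatives were scaling by total counts, TMM over nuclear loci, no filter, a replicate block, each replicate left out, DESeq2 1.42.0 and, added later, leaving out named libraries. Same-numbered libraries deviated together (each r over 0.1) for Day 4 yucasin, Day 4 MB-3 and Day 6 MB-3 against control. They also did so for yucasin against MB-3 and for -2,4-D against Day 4 control, so the pairing there comes from the data. Day 6 against Day 4 control shared only replicate 6, at r = 0.102. In the other comparisons same-numbered libraries did not all deviate together. Fold changes against groups with no count use 3 counts per library as a floor. Intervals and floors cover counting error only. The fitting step was tested on simulated data. The build of the reference used for names (TAIR10.1) differs from that of the files, so no coordinates or sequences are given.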

Additional observations from a re-analysis of the deposited data

Results flagged for a closer look

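The difference between each inhibitor and control at mitochondrial loci was tested for a change from Day 4 to Day 6 (edgeR interaction, experiment 2). For yucasin, 9 loci had a larger difference from control at Day 6 by the call rule (2.74% of all loci did), with a median of 1.52. For MB-3 the same test gave 3 loci (background 0.431%), with a median of 1.41. They were ATMG00550, COX3 (ATMG00730) and ATMG01040, named after their values were seen. NAD6 (ATMG00270) gave 1.94 ± 0.48 (SE, adjusted p = 0.0055) for yucasin and 1.86 ± 0.49 (SE, adjusted p = 0.03) for MB-3, and S12 (ATMG00980) 0.79 ± 0.28 (SE, adjusted p = 0.038) and 0.29 ± 0.28 (SE, adjusted p = 0.7). In control medium 101 loci were lower at Day 6 than at Day 4 at adjusted p under 0.05 (background 16.8%). The mean ATMG share at Day 4 and Day 6 was 0.582% and 0.314% in control. It was 1.82% and 2.04% with yucasin and 0.748% and 0.892% with MB-3. Part of each difference thus lies in the control libraries, and how large a part was not tested. Day 4 and Day 6 shared only replicate number 6. No library stood apart from the other 4 at Day 0 of experiment 2, the one group of 4 to 10 libraries, among 21 values examined.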

How the results depend on the processing

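The rises against Day 0 in experiments 2 and 3 and the yucasin rises kept their direction and stayed within 1.5 times their counts under scaling by total counts, TMM over nuclear loci, no filter, the replicate block, DESeq2 and each left-out replicate. Scaling by total counts moved medians to 5.35, 4.89 and 3.93 at Days 2, 4 and 6, to 5.38 and 6.03 in experiment 3 with and without 2,4-D, to 3.35 for yucasin at Day 6 and to 1.301 for yucasin against MB-3 at Day 6, with 0 calls there (15 with no filter). Experiment 1 depended most on the scaling: leaf to Day 0 gave 1 rise, 1 fall and a median of -0.41; Day 14 control against Day 0 gave 19, 1 and 1.60; Day 14 MB-3 gave 27, 0 and 1.88. A replicate block gave 1 rise in Day 14 control and 1 rise and 2 falls with MB-3 (both against Day 0), and a median of -0.90 from Day 4 to Day 6; it moved no other count at the fold threshold by over 1.5 times. DESeq2 called 1 rise in Day 14 control against Day 0 and 1 in MB-3 against control at Day 14, where no filter also gave 1. Without the 3 libraries of experiment 1 that stood apart, which leaves 1 Day 14 control library, 4 loci fell in Day 14 control and 1 rose and 0 fell with MB-3, and the median of MB-3 against control was 0.96. At adjusted p under 0.05 with no minimum fold, the counts were 21 higher for leaf to Day 0, 4 higher for Day 14 control, 11 higher and 6 lower for Day 14 MB-3, 9 higher for MB-3 against control at Day 14, 1 lower at Day 6, 37 and 117 higher for MB-3 at Days 4 and 6, 67 without 2,4-D, 7 higher and 78 lower from Day 2 to Day 4, 101 lower from Day 4 to Day 6, and 119 at each day for yucasin against MB-3. With 1 replicate left out in turn, rises ranged from 0 to 5 and medians from 0.24 to 0.97 for leaf to Day 0; rises from 0 to 1, falls from 5 to 12 and medians from -0.39 to 0.59 for Day 14 control; rises from 1 to 2, falls from 0 to 7 and medians from -0.0453 to 0.76 for Day 14 MB-3, the lowest medians of the last pair being those without replicate 1. Medians ranged from 1.83 to 2.25 for MB-3 at Day 6 and from 0.70 to 1.27 without 2,4-D; falls from 1 to 2 from Day 2 to Day 4 and from 0 to 3 from Day 4 to Day 6; and rises of yucasin against MB-3 from 2 to 18 at Day 4 and 14 to 28 at Day 6. Without ATP1 the mean ATMG share was 0.0302% and 0.0368% at Day 0 of experiments 2 and 3, 1.21% without 2,4-D, 0.298% in Day 6 control and 1.87% with yucasin at Day 6; with mapped reads as the denominator Day 6 control was at 0.324%. Of the values of single loci, no called value changed sign. Under the alternatives 9 lost their call and 105 kept their status, called or not called. With a replicate left out 6 lost their call and 65 kept their status. ATP1 (ATMG01190) at Day 2 was among those lost, at 2.00 with a replicate block and 1.58 without replicate 5. Values that were not called could change sign, as NAD6 (ATMG00270) at Day 6 against Day 0 did under scaling by total counts. Beyond the settings whose construction says so, the cause was not tested. Low counts at Day 0 limit single loci: 55 of 121 had no count in at least 1 library.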
